A study of Mus musculus with 6 samples.

Results

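The 10 genes described here encode the core of the circadian clock and one of its main outputs: the period genes Per1, Per2 and Per3, the cryptochromes Cry1 and Cry2, the REV-ERB receptors Nr1d1 and Nr1d2, the activators Arntl (BMAL1) and Clock, and the output factor Dbp. They were chosen by name, as rows of the deposited gene count table whose Ensembl identifier carries that symbol in GENCODE M21, and all 10 were found among the 55335 identifiers of the table. The libraries came from bone marrow-derived macrophages (BMDMs) of C57BL/6 mice, by the study's methods young adult males kept under equal spans of light and dark. BMDMs are marrow cells grown here in L929-conditioned medium, a source of the macrophage growth factor CSF-1. A control group of 3 libraries received PBS for 1 h and a second group of 3 libraries received lipopolysaccharide (LPS), the bacterial agonist of Toll-like receptor 4, for 1 h. The library names mark both groups as WT (wild-type), and no knockout, transgene or further agent was named in the labels of either group. The sources used here did not give the hour of day at harvest, named no step that sets the cells to a common clock phase, and did not say whether the replicates came from separate mice, so the p-values measure the spread between these libraries, which may be technical. A single time point was measured, so no rhythm could be read from these libraries.

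The clock is a feedback loop of transcription. BMAL1 and CLOCK bind E-box elements as a pair and switch on the Per and Cry genes, whose protein products then enter the nucleus and shut that pair off. In a second loop the BMAL1 and CLOCK pair drives the REV-ERB receptors, which repress Arntl and Nfil3 through elements shared with the ROR activators, and in a further loop it drives Dbp, which with its relatives TEF and HLF activates genes through D-box elements that the repressor NFIL3 also binds. Macrophages carry a cell-autonomous clock that is known to set the size of their responses to LPS over the day, and Per1 is also known as an immediate early gene that is switched on by cAMP and CREB signalling through a cAMP response element (CRE).

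Library totals lay between 37787611 and 41516330 assigned reads, and the 10 genes received between 110 and 3318 reads in a library. The summed level of 8 macrophage markers was 29900 to 31200 CPM (counts scaled to a common library size after TMM) in controls and 35900 to 36200 CPM after LPS, with Lyz2 the highest and none at 0. These markers did not move alike. Cd14 went from a mean of 398 CPM to 3623 CPM, while Fcgr1 was lower, at 396 against 284 CPM. Mertk overlapped between groups, at 109 and 106 CPM. Adgre1, Csf1r, Cd68, Itgam and Lyz2 were higher in every LPS library than in any control. Summed levels of markers of other cells were far lower in both groups. They were 40.8 to 43.6 CPM against 52.7 to 56.8 CPM for 7 neutrophil markers, 35.4 to 38.6 CPM against 44.9 to 48.7 CPM for 3 endothelial markers, which was mostly Kdr, and 11.3 to 12.2 CPM against 13.1 to 14.3 CPM for 4 stromal markers. The 4 dendritic cell markers summed to 3.15 to 4.01 CPM in controls and 9.62 to 10.6 CPM after LPS, and all 4 rose. Markers of B cells, T and NK cells, mast cells and erythroid cells each summed to at most 1.65 CPM in every library, with Mcpt4 and Tpsb2 at 0. The part of other cell types in the values below was not tested, and in such bulk samples fewer cells of a type and less RNA per cell cannot be told apart.

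The promoters of the members that moved most are shown first, because clock elements are short words that can be read in them. RefSeq promoters on GRCm38.p6, which run from 250 bases before to 50 bases from the start site on, were matched for 9 of the 10 genes as 13 windows of 300 bases, and Per2 had no entry. Both strands were searched for the E-box CACGTG, the E'-box CACGTT, the D-box TTANGTAA, the core of the ROR and REV-ERB element AGGTCA, the full CRE TGACGTCA and the short CRE TGACGT, which lies within the full one. Each sequence below is written 5′ to 3′ on the strand of its gene, with the matches in capitals. They are both windows of Per1, on the plus strand at chr11:69098699-69098998 and chr11:69099902-69100201, that of Per3, on the minus strand at chr4:151044616-151044915, and that of Dbp, on the plus strand at chr7:45704997-45705296.
Per1, first window: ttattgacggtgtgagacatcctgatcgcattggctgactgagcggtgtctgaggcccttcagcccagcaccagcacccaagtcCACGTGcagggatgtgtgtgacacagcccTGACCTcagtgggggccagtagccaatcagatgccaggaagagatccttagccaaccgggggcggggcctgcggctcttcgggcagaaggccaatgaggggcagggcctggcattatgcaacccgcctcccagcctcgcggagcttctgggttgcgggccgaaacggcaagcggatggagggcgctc
Per1, second window: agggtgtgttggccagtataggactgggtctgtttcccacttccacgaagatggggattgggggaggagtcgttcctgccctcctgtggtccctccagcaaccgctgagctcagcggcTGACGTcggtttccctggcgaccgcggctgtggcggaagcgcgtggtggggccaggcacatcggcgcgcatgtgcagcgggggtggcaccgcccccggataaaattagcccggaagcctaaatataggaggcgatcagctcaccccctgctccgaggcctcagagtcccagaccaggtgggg
Per3: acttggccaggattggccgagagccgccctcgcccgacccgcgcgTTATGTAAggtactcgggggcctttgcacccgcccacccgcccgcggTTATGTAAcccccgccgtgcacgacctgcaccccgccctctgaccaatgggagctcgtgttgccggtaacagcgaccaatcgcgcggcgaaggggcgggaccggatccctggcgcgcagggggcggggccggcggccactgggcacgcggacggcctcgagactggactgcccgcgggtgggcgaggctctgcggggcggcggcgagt
Dbp: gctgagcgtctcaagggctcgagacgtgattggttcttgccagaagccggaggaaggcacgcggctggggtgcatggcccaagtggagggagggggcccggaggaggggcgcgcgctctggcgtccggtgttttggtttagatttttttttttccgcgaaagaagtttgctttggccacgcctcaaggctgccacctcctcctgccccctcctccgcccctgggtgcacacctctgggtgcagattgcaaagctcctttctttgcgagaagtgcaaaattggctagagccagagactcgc
In the first Per1 window the capitals mark an E-box and, read on the other strand, an AGGTCA core, at -166 and -137 from the start site. The second Per1 window held a short CRE at -132 and no other match. Per3 held the D-box in 2 copies, at -205 and -158, both spelled TTATGTAA, and was the only 1 of the 13 windows with that element. None of the searched words lay in the Dbp window.

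Among the other members, Cry1 held an E-box at -60 and an E'-box at -79, and Cry2 and Nr1d1 each held an E'-box, at -166 and -28. The AGGTCA core lay at -77 in Nr1d2, at 31 in a window of Arntl and at -119 in a window of Clock. Of all 32851 RefSeq promoter windows, 7.15% held the E-box, 4.68% the E'-box, 2.32% the D-box, 16.3% the AGGTCA core, 1.79% the full CRE and 7.51% the short CRE. By comparison the 13 windows of the members held these words in 2, 3, 1, 4, 0 and 1 cases. A match is a description of the letters and not a shown binding site.

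After 1 h of LPS, Per1 rose about 4-fold and Dbp fell by more than 2-fold, and these were the 2 members past both criteria, an adjusted p under 0.05 and a change above 2-fold. In the same test 10.5% of the 15687 genes tested rose and 10.4% fell by these criteria, so 1 member in each direction is close to the share of all genes. By adjusted p alone, 6 members were higher and 2 were lower, against 32.9% and 34.9% of all genes tested. Cry2 and Arntl did not pass. The median log2 fold change was 0.32 over the 10 members and -0.01 over all genes tested. All of the 10 passed the filter on low counts.

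**Figure D1:**
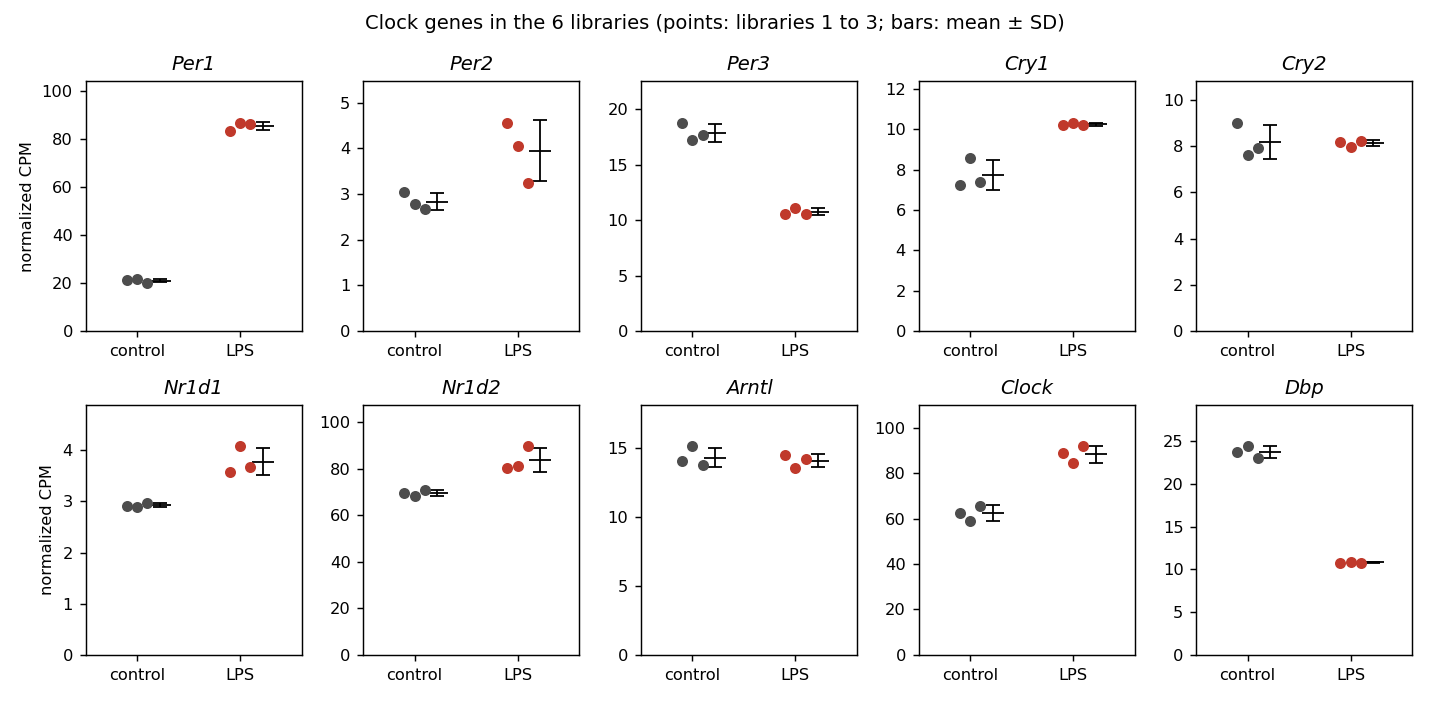
Normalized level of each clock gene in CPM (y axis, starting at 0, own scale for each gene) in the control and LPS libraries (x axis), where points are the 3 libraries of a group and bars the mean ± SD. Per1 stood near 21 CPM in controls and above 83 CPM after LPS, Dbp and Per3 were lower after LPS, and the groups overlapped for Cry2 and Arntl.

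The 3 period genes, whose products form the repressor with the cryptochromes, went separate ways. Per1 (ENSMUSG00000020893.17, GRCm38 chr11:69095217-69109960, plus strand) had 21.2, 21.7 and 20.2 CPM in the control libraries and 83.2, 86.6 and 86.1 CPM after LPS. Every LPS library was far above every control, and the spread within each group was small. The log2 fold change was 2.02 with a standard error (SE) of 0.04 and a 95% interval of 1.93 to 2.11 (adjusted p = 8.18e-18, edgeR quasi-likelihood test), a 4.05-fold rise.

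Per3 (ENSMUSG00000028957.12, chr4:151003652-151044665, minus strand), the member of the family that mouse clocks need least, had 18.8, 17.2 and 17.7 CPM in controls and 10.6, 11.2 and 10.6 CPM after LPS. The groups did not overlap, and the direction was opposite to that of Per1. Its log2 fold change was -0.73 (SE 0.06, interval -0.87 to -0.60, adjusted p = 1.41e-08), short of the 2-fold criterion. With library size alone it was -1.14 (adjusted p = 3.21e-11), past both criteria.

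Per2 (ENSMUSG00000055866.9, chr1:91415982-91459324, minus strand), which is needed for a lasting rhythm, was the lowest of the 3. It had 3.05, 2.79 and 2.67 CPM in controls and 4.56, 4.04 and 3.23 CPM after LPS, from 110 to 153 reads in a library. The lowest LPS library lay just above the highest control. It was higher by 0.48 on the log2 scale (SE 0.13, interval 0.20 to 0.75, adjusted p = 0.00401), and with library size as the only scaling it was 0.07 (adjusted p = 0.626).

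The cryptochromes are the repressors that hold BMAL1 and CLOCK inactive. Cry1 (ENSMUSG00000020038.10, chr10:85131700-85185064, minus strand) had 7.25, 8.59 and 7.39 CPM in controls and 10.2, 10.3 and 10.2 CPM after LPS. All LPS libraries were above all controls, and the LPS libraries were nearly equal. Its log2 fold change of 0.41 (SE 0.08, interval 0.23 to 0.58, adjusted p = 3.03e-04) became 0.00 with library size alone (adjusted p = 0.995).

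Cry2 (ENSMUSG00000068742.11, chr2:92403646-92434043, minus strand) had 9.01, 7.61 and 7.91 CPM in controls and 8.16, 7.97 and 8.23 CPM after LPS. The LPS values lay inside the range of the controls. The log2 fold change was -0.01 with an interval of -0.19 to 0.17 (adjusted p = 0.914), so a change beyond those bounds was not seen, while a smaller one was not detectable. With library size alone it was -0.42 (adjusted p = 2.32e-04).

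The REV-ERB receptors are heme-binding repressors of Arntl. Nr1d2 (ENSMUSG00000021775.11, chr14:18204054-18239127, minus strand) had 69.7, 68.1 and 70.6 CPM in controls and 80.4, 81.1 and 89.5 CPM after LPS. Its groups did not overlap, and 1 LPS library was higher than the other two. The log2 fold change of 0.27 (SE 0.04, interval 0.18 to 0.36, adjusted p = 2.07e-05) turned to -0.14 with library size alone (adjusted p = 0.00738).

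Nr1d1 (ENSMUSG00000020889.11, chr11:98767932-98775333, minus strand), known for curbing inflammatory genes in macrophages, had far fewer reads than Nr1d2. It had 2.92, 2.90 and 2.97 CPM in controls and 3.58, 4.07 and 3.67 CPM after LPS. The LPS libraries were all above the controls, by less than 2-fold. The log2 fold change of 0.36 (SE 0.11, interval 0.13 to 0.60, adjusted p = 0.00823) was 0.22 with upper quartile scaling (adjusted p = 0.0875) and -0.04 with library size alone (adjusted p = 0.748). Thra, the thyroid hormone receptor gene on the opposite strand, shares 263 bases of exon with Nr1d1, which is 8.55% of its exon length, and had a log2 fold change of 0.15 (adjusted p = 0.102). Whether reads were counted by strand was not given in the sources used here.

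The activators behaved differently from each other. Clock (ENSMUSG00000029238.11, chr5:76209868-76304792, minus strand), a histone acetyltransferase and partner of BMAL1, had 62.5, 58.9 and 65.7 CPM in controls and 88.7, 84.2 and 91.7 CPM after LPS. The groups were well apart. Clock was higher by 0.50 on the log2 scale (SE 0.04, interval 0.41 to 0.59, adjusted p = 1.28e-08), and 0.10 with library size alone (adjusted p = 0.0571).

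Arntl (ENSMUSG00000055116.8, chr7:113207465-113314126, plus strand), the 1 clock gene without which the loop stops, had 14.0, 15.1 and 13.8 CPM in controls and 14.5, 13.5 and 14.2 CPM after LPS. The groups overlapped, with 1 control above every LPS library and 1 LPS library below every control. Arntl differed by -0.02 on the log2 scale (SE 0.06, interval -0.16 to 0.11, adjusted p = 0.763), with -0.17 under upper quartile scaling (adjusted p = 0.0299) and -0.43 with library size alone (adjusted p = 1.11e-05).

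Dbp (ENSMUSG00000059824.12, chr7:45705088-45710203, plus strand), a D-box activator and a direct output of BMAL1 and CLOCK, had 23.8, 24.4 and 23.1 CPM in controls and 10.8, 10.9 and 10.8 CPM after LPS. The fall was seen in every library, and the LPS libraries were almost the same. The log2 fold change was -1.13 (SE 0.06, interval -1.25 to -1.01, adjusted p = 5.72e-12), so the level after LPS was 0.456 times that of controls. Sphk2, a sphingosine kinase gene on the opposite strand, shares 539 bases of exon with Dbp, 18% of the exon length of Dbp, and was itself lower by -0.64 (adjusted p = 1.18e-10). Its part in the Dbp counts was not tested. The other overlaps of member exons were with D930015M05Rik at Cry2 (295 bases) and Gm45355 at Arntl (33 bases), which had at most 1 read in any library.

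The size of the smaller differences rested on the scaling between libraries. The mean TMM factor was 1.15 in controls and 0.869 after LPS, and without it the median log2 fold change of all genes moved from -0.01 to -0.42, and with upper quartile scaling to -0.16. A change of scaling shifts all genes by a like amount. The distance of a member from the median gene was therefore the same under all 3 scalings by construction, which tests nothing about the members. Per1 was 2.03 above the median gene, Clock 0.51, Per2 0.49, Cry1 0.42, Nr1d1 0.38 and Nr1d2 0.28 above it, on the log2 scale. Cry2 and Arntl lay at 0.00 and -0.01 from the median gene, Per3 at -0.72 and Dbp at -1.12. Per1, Per3 and Dbp were the 3 members with the same direction and an adjusted p under 0.05 under every scaling run.

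**Figure D2:**
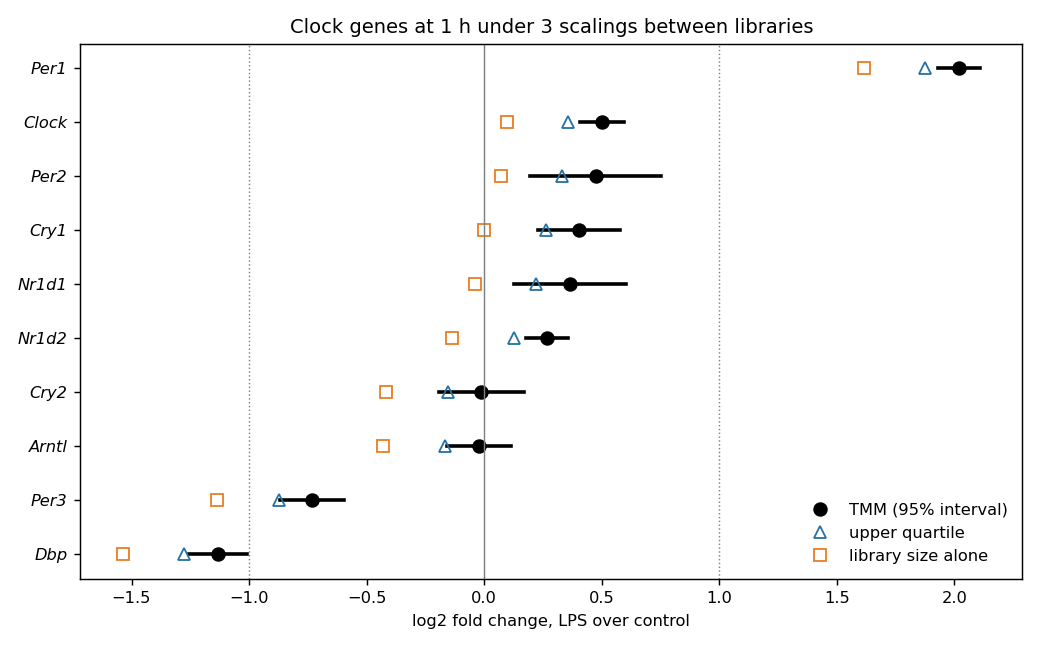
Log2 fold change of LPS over control (x axis) for each clock gene (y axis), with filled points and bars for TMM scaling and its 95% interval, open triangles for upper quartile scaling and open squares for library size alone, and dotted lines at -1 and 1. Library size alone moved every gene to the left by a like amount, which took Nr1d1 and Nr1d2 below 0 and left Per1 at 1.61, Per3 at -1.14 and Dbp at -1.54.

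Levels were also compared between genes, as CPM per kilobase of annotated exon. Nr1d2 was the highest in controls at 12.8 ± 0.232 (SD, n = 3), before Dbp at 7.93 ± 0.219, Clock at 4.54 ± 0.248 and Per1 at 3.74 ± 0.134. Cry1 at 2.32 ± 0.221, Arntl at 1.90 ± 0.0943, Per3 at 1.86 ± 0.0846, Cry2 at 1.29 ± 0.116, Nr1d1 at 0.952 ± 0.0117 and Per2 at 0.484 ± 0.0331 followed. Of these neighbours, Arntl and Per3 did not differ beyond their spread. After LPS, Per1 reached 15.1 ± 0.323, which did not differ beyond the spread from Nr1d2 at 15.5 ± 0.940. Per1 moved from the fourth place to the level of the first, and Dbp dropped to 3.62 ± 0.0235, below Clock at 6.43 ± 0.275. The lower places after LPS were Cry1 at 3.07 ± 0.0209, Arntl at 1.87 ± 0.0618, Cry2 at 1.28 ± 0.0216, Nr1d1 at 1.23 ± 0.0860, Per3 at 1.12 ± 0.0336 and Per2 at 0.674 ± 0.114. Here Cry2 and Nr1d1 did not differ beyond their spread, and Nr1d1 and Per3 differed by less than the sum of their SDs.

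A ratio of 2 members within a library does not depend on the scaling, so 6 pairs of related genes were compared in this way. The log2 ratio of reads of Per1 to Per3 was 0.18, 0.33 and 0.20 in controls and 2.97, 2.96 and 3.02 after LPS, a difference of 2.75. These 2 genes had nearly the same number of reads before LPS and were far apart after it. The ratio of Per1 to Per2 went from 2.89 ± 0.0826 to 4.45 ± 0.273 (SD, n = 3), and that of Per2 to Per3 from -2.66 ± 0.0589 to -1.46 ± 0.246.

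Outside the period family, the log2 ratio of Cry1 to Cry2 was -0.31, 0.17 and -0.10 in controls and 0.32, 0.37 and 0.31 after LPS. Cry1 thus gained on Cry2 in every LPS library, by 0.42 on average. The ratio of Arntl to Clock fell by 0.52, from -2.13 ± 0.148 to -2.65 ± 0.0406. In these 5 pairs the groups did not overlap, and the exact two-sided permutation p was 0.1, the smallest that 3 against 3 libraries can give (adjusted p = 0.12 over the 6 pairs), so no pair passed the threshold of 0.05. The ratio of Nr1d1 to Nr1d2 overlapped between groups, with a difference of 0.10 (exact permutation p = 0.4). How often the groups are apart in pairs of other genes was not counted. By adjusted p alone in the edgeR test, 32.9% of all genes tested were higher and 34.9% lower. The 5 separate pairs therefore cannot be read as a trait of clock genes.

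**Figure D3:**
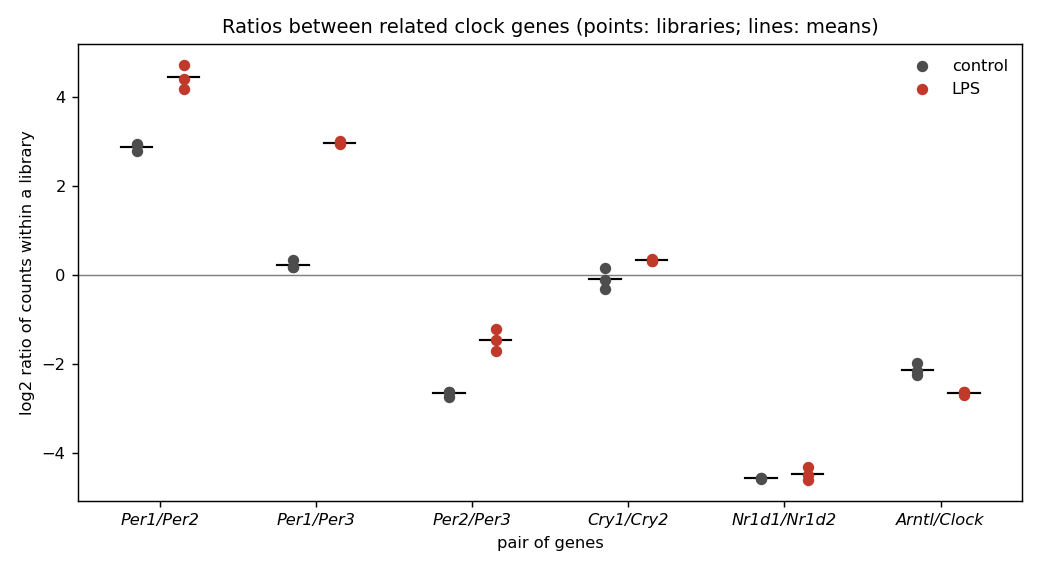
Log2 ratio of read counts of 2 related clock genes within a library (y axis) for the 6 pairs (x axis), where grey points are control libraries, red points LPS libraries and lines their means. The groups are apart in 5 pairs, widest for Per1 over Per3 at 0.23 against 2.98, and overlap for Nr1d1 over Nr1d2. Pairs of other genes were not counted.

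A wider list of 46 genes of the clock pathway was read by role. Of these, 42 passed the filter, 5 rose and 1 fell by both criteria, and by adjusted p alone 21 were higher, 13 were lower and 8 did not pass. The median log2 fold change of the 42 was 0.12, beside -0.01 for all genes. These counts stand beside 10.5% of all genes tested that rose and 10.4% that fell by both criteria, and beside 32.9% that were higher and 34.9% lower by adjusted p alone. With library size alone, 8 of the 42 passed both criteria and 37 passed by adjusted p. In that setting 1213 of all 15687 genes tested rose and 2964 fell by both criteria, and 12691 passed by adjusted p. The larger counts on the list therefore went with larger counts over all genes.

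Of 11 transcription factors that act at clock elements, 8 were tested, and 2 of them rose, beside 10.5% of all genes tested. Nfil3, the repressor that competes with DBP at D-boxes, had 9.98, 10.8 and 9.77 CPM in controls and 147, 146 and 143 CPM after LPS (log2 fold change 3.84, SE 0.04, adjusted p = 1.21e-21). Bhlhe40 (DEC1), a repressor that binds E-boxes, had 23.4, 23.2 and 24.0 CPM in controls and 118, 117 and 119 CPM after LPS (log2 fold change 2.33, SE 0.04, adjusted p = 1.51e-19). Both were far higher in every LPS library than in any control.

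The relatives of these 2 factors and of Dbp are named here after their values were seen. Bhlhe41 (DEC2), the paralog of Bhlhe40, was lower, at 53.5 ± 3.27 CPM in controls and 35.7 ± 0.790 CPM after LPS (SD, n = 3, log2 fold change -0.59, adjusted p = 4.91e-09). Tef, the D-box activator related to Dbp, was lower too, with 70.2, 72.9 and 70.8 CPM in controls and 42.2, 38.2 and 41.2 CPM after LPS (log2 fold change -0.82, adjusted p = 7.82e-12). The third such activator, Hlf, had 4 to 7 reads in a library and was not tested. Dbp and Tef were thus both lower and Nfil3 higher in all 3 LPS libraries. Rora, the activator at the element of the REV-ERB receptors, was higher, at 27.8 ± 2.01 CPM in controls and 42.3 ± 1.05 CPM after LPS (log2 fold change 0.61, adjusted p = 9.42e-09), while Rorb had no reads. Npas2, which can stand in for Clock, was higher by 0.64 (adjusted p = 0.00253) and Arntl2, the paralog of Arntl, lower by -0.86 (adjusted p = 0.0146), both at under 2 CPM. The values of these relatives are given for TMM scaling alone.

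The 13 kinases, ubiquitin ligases and other enzymes that act on PER, CRY or BMAL1 were all tested. Of these, 4 were higher, 3 were lower and 6 did not pass by adjusted p. Over all genes tested, 32.9% were higher and 34.9% lower. Ppp1cb, a catalytic subunit of protein phosphatase 1, was higher by 0.55 (adjusted p = 6.92e-10), and by 0.15 with library size alone. The main PER kinases Csnk1d and Csnk1e, named after their values were seen, differed with TMM scaling by -0.11 (adjusted p = 0.00712) and -0.19 (adjusted p = 0.00304). Their values under other scalings are not given here. With library size alone the median gene moved from -0.01 to -0.42.

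Of 14 cofactors of the clock repressors and activators, 8 were higher, 5 were lower and 1 did not pass by adjusted p. The shares of all genes tested were 32.9% higher and 34.9% lower. Timeless, which is better known for its work at replication forks than in the mammalian clock, fell. It had 11.3, 10.8 and 10.2 CPM in controls and 5.33, 5.79 and 4.03 CPM after LPS, and the groups did not overlap (log2 fold change -1.09, SE 0.11, adjusted p = 4.87e-08). Without the third LPS library its log2 fold change was -0.96, short of the 2-fold criterion. Ddx6, an RNA helicase found with PER complexes, was the most abundant cofactor and was higher by 0.65 (adjusted p = 1.42e-11). With library size alone Ddx6 was higher by 0.25. Tbl1xr1, part of the NCoR corepressor complex that REV-ERB receptors use, differed by 0.12 (adjusted p = 0.00485), but by -0.02 with upper quartile scaling and -0.28 with library size alone.

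Of 8 outputs of the clock, 7 were tested, of which 5 were higher and 2 lower by adjusted p. Among all genes tested these shares were 32.9% and 34.9%, and no set was tested against them. Noct, a deadenylase-related phosphatase that oscillates in many tissues, had 11.2, 10.3 and 10.9 CPM in controls and 216, 220 and 219 CPM after LPS (log2 fold change 4.34, SE 0.04, adjusted p = 1.22e-22). Cdkn1a (p21), the cell cycle inhibitor, had 18.8, 22.8 and 23.1 CPM in controls and 344, 342 and 337 CPM after LPS (log2 fold change 3.99, SE 0.06, adjusted p = 2.05e-20). Both rose in every LPS library, by more than any of the 10 clock genes. Nampt, the rate-limiting enzyme of NAD salvage, was higher by 0.61 (adjusted p = 1.32e-10), and Por, the cytochrome P450 reductase gene, by 0.52 (adjusted p = 1.14e-09). With library size alone Nampt was higher by 0.21 and Por by 0.11. Ppara had at most 1 read in a library and was not tested.

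**Figure D4:**
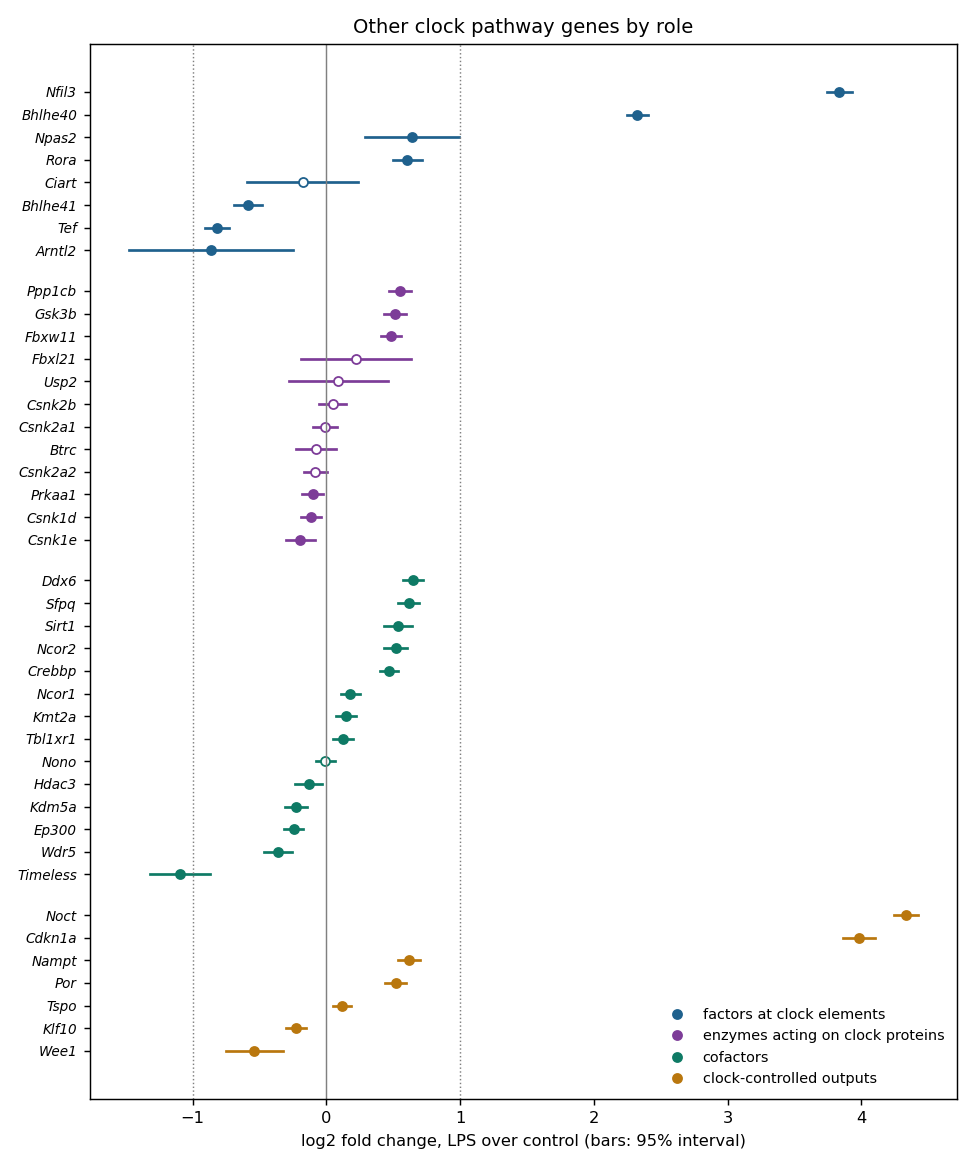
Log2 fold change of LPS over control (x axis) with 95% intervals for the tested genes of the wider clock list that are reported here (y axis), coloured by role, with filled points for an adjusted p under 0.05, open points for the rest and dotted lines at -1 and 1. Nfil3, Bhlhe40, Noct and Cdkn1a lie above 1 and Timeless below -1, while the points of the others lie between these lines.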

How the data were processed

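RNA-seq libraries of total RNA from C57BL/6 BMDMs, 3 given PBS and 3 given LPS for 1 h, were made with a stranded kit per the labels. The LPS dose, the strand setting of the counting, the annotation release and the handling of reads with several positions were not given in the sources used here. The authors aligned reads to GRCm38, and the submitters' processing notes name FastQC 0.11.9, HISAT2 2.1.0, SAMtools 1.17 and featureCounts 2.0.0. The deposited values were raw read counts per gene with no normalization. The 10 members and the wider clock list were chosen with earlier results of these data known.

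Identifiers were matched to GENCODE M21 (55154 of 55335 had a symbol). Genes passing filterByExpr (15687) were scaled by TMM and tested with the edgeR 4.0.16 quasi-likelihood test with treatment as the only term, using R 4.3.3, and p-values were adjusted by Benjamini-Hochberg over all genes tested. Genes were said to rise or fall where the adjusted p was under 0.05 and the log2 fold change beyond 1 in either direction. Levels are CPM after TMM scaling. Ratios of 2 members were compared by the exact two-sided permutation test. All members were named, and of the wider list those past both criteria and the 2 most abundant in each role. A few listed genes are counted but not reported here by name. For other genes the text says that they were named after their values were seen, apart from those of overlapping exons, named by the largest overlap.

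The labels give the replicate number as a batch, which pairs the libraries. Same-numbered libraries had correlations of deviations of -0.0139, 0.0822 and 0.0387. Replicates differed beyond sampling noise (chi-square per degree of freedom 5.41 to 20.3). The third LPS library stood furthest off, at 13.7 from the first and 20.3 from the second, which were at 5.41 from each other. The biological coefficient of variation was 0.0426. On simulated counts for the 15687 genes, of which 15222 were tested, 200 were changed by 2 on the log2 scale. The test recovered 191 of these with 1 false call. In the measured libraries 10626 genes passed by adjusted p, and recovery with that many changed genes was not tested. DESeq2 1.42.0 and limma voom (limma 3.58.1), other scalings and filters, a replicate block and leaving out each library were tried as alternatives.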

Additional observations from a re-analysis of the deposited data

How the results depend on the processing

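The 10 fold changes were computed again under 15 other settings, and 135 of these 150 values kept their direction and their side of the threshold, while 8 changed direction, 4 no longer passed and 3 newly passed. The scaling between libraries was the choice that moved most values. With library size alone, 2 members, Dbp and Per3, fell past both criteria, and by adjusted p 1 was higher and 5 lower, with Nr1d1 at -0.0399, Nr1d2 at -0.14 and Tbl1xr1 at -0.28 (log2), while Per2 (0.07), Cry1 (0.00) and Clock (0.10) no longer passed and Cry2 (-0.42) and Arntl (-0.43) did. Of all 15687 genes tested, 12691 passed by adjusted p with library size alone, beside 10626 with TMM. Upper quartile scaling gave -0.0203 for Tbl1xr1. Cry2 was 0.00745 with DESeq2 size factors and 0.00771 with the DESeq2 test. Leaving out 1 library in turn gave -0.0595 to 0.0632 for Cry2 and -0.0506 to 0.0177 for Arntl, neither of which passed in any of these fits, and changed no call of the 10. With the replicate block, Per1 was at 2.02 (adjusted p = 7.50e-23) and Dbp at -1.13, and no call of the members changed. The 6 log2 ratios kept their direction in all 48 recomputed values, but most of these were bound to do so. The replicate block leaves a mean difference unchanged, and where the groups do not overlap, leaving out a library cannot reverse it.

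Over all genes, 1653 rose and 1624 fell by both criteria. These counts were 1213 and 2964 with library size alone, 1467 and 1975 under the upper quartile, 1141 and 1027 with at least 10 counts in every library, and 1332 and 922 in a test against a log2 fold change of 1. At 110 to 153 reads a library, Per2 and Nr1d1 were the least precise members, with SE of 0.13 and 0.11.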
